A study of Homo sapiens with 8 samples.

Results

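The BCL2 family decides at the outer mitochondrial membrane whether a stressed cell survives. The 10 members described here were chosen by name, and their Ensembl IDs in the deposited files were paired with the symbols of GENCODE release 29. They make up 10 of the 58735 gene IDs counted. BCL2, BCL2L1 (which encodes BCL-XL), MCL1 and BCL2A1 (BFL1) are the anti-apoptotic members. BAX is a pore-forming effector. BCL2L11 (BIM), BBC3 (PUMA), PMAIP1 (NOXA), BID and BMF are the BH3-only members, which carry the death signal.

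MOLM-13 is an established human line of acute myeloid leukemia, and its bulk RNA was sequenced on an Illumina HiSeq instrument. The analysed libraries were untreated parental cells (parental, replicate 2) and vehicle cultures after 1, 3 and 5 treatment courses with DMSO at 1%, with 1 library for each. The study asked how the line becomes resistant to busulfan, a bifunctional alkylating agent, and these libraries are its drug-free arm. Of the 8 samples in the labels, the 3 busulfan samples and the other parental sample were not analysed here. The labels give no passage number for the DMSO cultures, so passage and the number of courses cannot be told apart. Nothing in the labels says that the DMSO libraries are replicate cultures of one state.

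After 0, 1, 3 and 5 courses the libraries held 56825811, 44795976, 50855326 and 45095954 reads on genes. Levels are given as CPM, read counts put on a common library size with TMM factors. Reads aligned to several places took 21.33% of all reads in DMSO course 5, and 13.86 to 15.39% in the other libraries, and its part in the levels of course 5 was not tested. All 10 myeloid markers examined, among them CD33, MPO and SPI1, reached at least 5 CPM in every library. Of the T cell markers CD2 was at 0 counts throughout and TRAC alone reached 5 CPM in every library. In the B cell, erythroid, megakaryocyte and fibroblast lists no marker did, and of the epithelial list 1 of 5 did. Some low markers nonetheless differed between the libraries: KRT18 was at 28.5, 11.7, 5.68 and 4.35 CPM after 0, 1, 3 and 5 courses, and the summed epithelial list at 40.2, 20.3, 12.3 and 10.4 CPM. CD3D had 243, 24, 3 and 4 reads and COL1A1 186, 108, 10 and 5. The part of these markers in the members' levels was not tested.

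In healthy cells the anti-apoptotic proteins hold BAX and its relative BAK1 in check and bind BH3-only proteins in a groove. BH3-only proteins are raised or released by particular stresses: PMAIP1 is induced through ATF4, BCL2L11 follows growth factor loss, and BID links death receptors to mitochondria. Leukemia cells differ in which anti-apoptotic member they lean on, and BCL2 itself is the target of the drug venetoclax. MCL1 and PMAIP1 proteins turn over quickly, so their RNA levels need not follow the protein. All values here are RNA, and counts per gene do not separate the splice forms of BCL2L1, BCL2L11 or MCL1. In bulk RNA, fewer cells that express a gene and less RNA per cell cannot be told apart.

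PMAIP1 and BMF are the BH3-only genes with the widest range across the libraries, and their libraries stood in opposite order. Their proximal upstream sequences are therefore shown. The stretches come from RefSeq on GRCh38.p14 and are cut where GENCODE release 29 places an exon. PMAIP1 is at chr18:59899746-59899947 on the plus strand, ending 49 bases upstream of the RefSeq start. BMF is at chr15:40108893-40109129 on the minus strand, ending 14 bases upstream. Capitals mark matches on either strand to TGACG, the half-site of the cAMP response element, and to GGGCGG, the GC box.
PMAIP1: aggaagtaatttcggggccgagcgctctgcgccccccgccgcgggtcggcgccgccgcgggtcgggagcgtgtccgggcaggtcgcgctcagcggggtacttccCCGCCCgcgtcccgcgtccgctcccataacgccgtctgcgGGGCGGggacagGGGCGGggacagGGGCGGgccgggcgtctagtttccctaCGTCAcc
BMF: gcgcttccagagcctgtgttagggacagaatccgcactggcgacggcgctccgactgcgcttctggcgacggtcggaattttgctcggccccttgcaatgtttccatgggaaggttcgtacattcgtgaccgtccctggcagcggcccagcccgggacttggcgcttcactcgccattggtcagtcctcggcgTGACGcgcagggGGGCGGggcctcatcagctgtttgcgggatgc

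Both windows hold TGACG close to the RefSeq start, at 55 bases upstream in PMAIP1 and 57 in BMF. GENCODE release 29 starts these genes 48 and 13 bases farther upstream, so the distances depend on the start taken. The RefSeq table had windows for 9 of the 10 members, all but MCL1, from 250 bases before to 50 after a start, with 1 to 5 windows a member, of which the first listed was searched. TGACG was in 5 of the 9 (BCL2, BCL2L1, BAX, PMAIP1 and BMF) and in 24.6% of all 35116 windows. GGGCGG was in 5 of the 9 (BAX, BCL2L11, PMAIP1, BID and BMF) and in 45% of all windows. The hypoxia response core ACGTG was in the windows of BAX and BBC3 and in 21.4% of all windows, and TATAAA was in those of BCL2L1 and BCL2A1 and in 11.5%. The composite TGATGNAA, which ATF4 binds with CEBP factors, was in the window of BCL2A1 alone among the members and in 3.62% of all windows. All 250 upstream bases of the windows of BCL2A1 and BCL2 lie in exons of GENCODE release 29. The RefSeq starts used for BCL2L11, BCL2, BID and BCL2A1 lie 1536, 359, 301 and 250 bases inside the genes of that release. These matches are letters in a window and do not show binding.

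Across the 4 libraries the members split by the library in which they stood apart. BCL2, BAX, BCL2L11 and BBC3 were lowest in the parental cells, and no share over all genes is given for that order. BCL2A1 and BMF were highest in DMSO course 1 and lower than parental in courses 3 and 5, whereas BCL2L1 and PMAIP1 had the mirror order. These 4 of 10 lay on opposite sides of parental in course 1 and in courses 3 and 5, each beyond counting error, as did 21% of all genes averaging 5 CPM or more. BID was highest in the parental cells, and MCL1 was nearly level. The ratio of the highest to the lowest library ran from 1.23 for MCL1 to 3.60 for BCL2A1, and its median over the 10710 genes that averaged 5 CPM or more was 1.52. All 10 members passed that minimum.

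**Figure D1:**
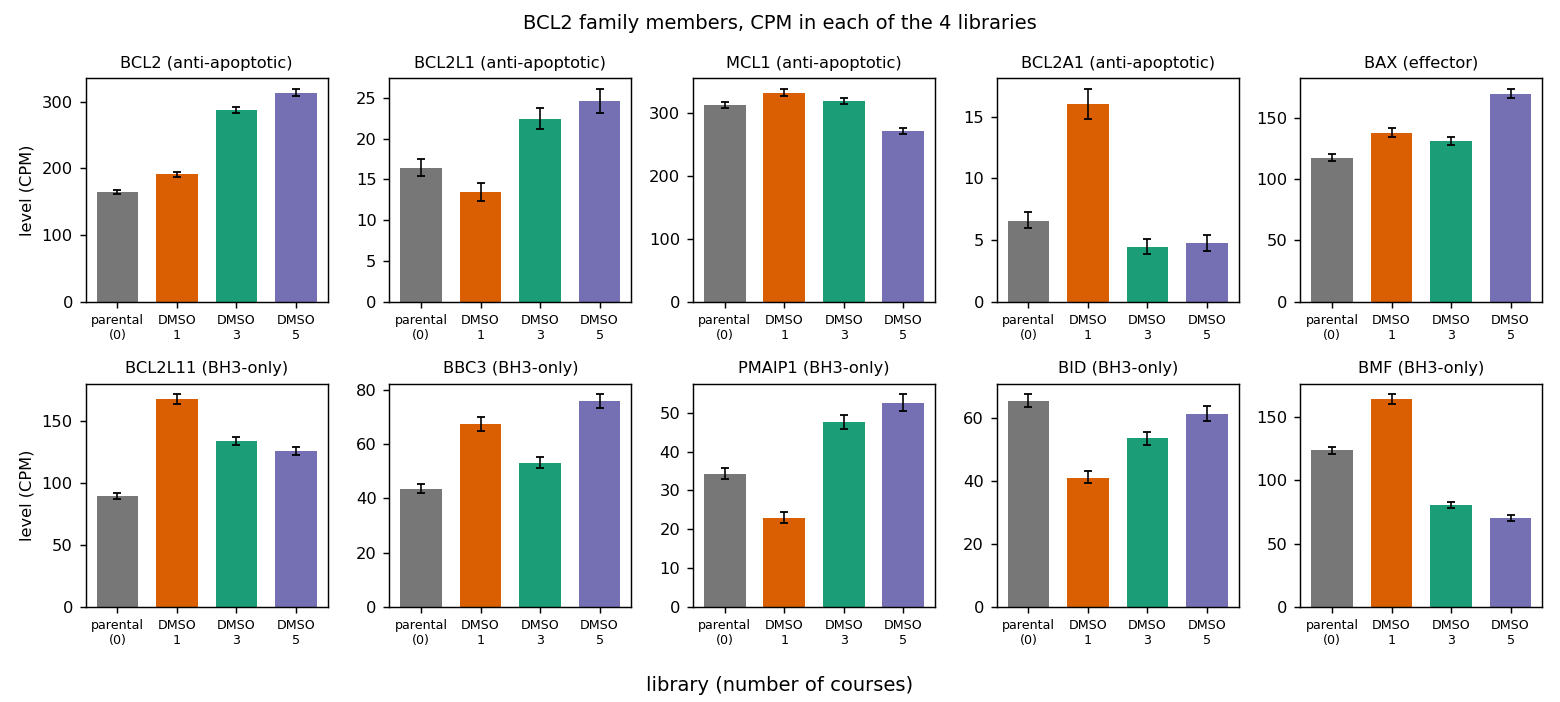
Level of each member (CPM, y axis) in the parental library (0 courses) and in DMSO courses 1, 3 and 5 (x axis), 1 library a bar. Error bars are exact Poisson 95% intervals for counting error. BCL2 is tallest in course 5 at 314 CPM, and BCL2A1 is tallest in course 1 at 15.99 CPM.

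Among the anti-apoptotic genes, BCL2 (ENSG00000171791, chromosome 18) stood at 164, 191, 288 and 314 CPM after 0, 1, 3 and 5 courses, from 9717, 8221, 14446 and 14290 reads. Its level was in the order of the courses, with the wide step between courses 1 and 3. Against the parental library its log2 ratios were 0.22 (95% counting interval 0.17 to 0.26), 0.81 (0.77 to 0.85) and 0.93 (0.90 to 0.97) in courses 1, 3 and 5. In course 3, 6.76% of genes were farther from the parental level than BCL2, and in course 5 it was 9.02%. These are single libraries, so the intervals cover counting error and not the spread between cultures.

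BCL2L1 (ENSG00000171552, chromosome 20), which encodes the long-lived survival protein BCL-XL, stood at 16.4, 13.4, 22.4 and 24.6 CPM after 0, 1, 3 and 5 courses. The antisense gene ABALON covers 43% of its exon bases and had 0 or 1 reads in each library. Reads from the shared bases are assigned to BCL2L1 only as far as the counting used strand. The ratio of course 5 to course 1 was 1.83-fold, and 20.8% of genes were farther apart between those libraries.

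MCL1 (ENSG00000143384, chromosome 1), whose short-lived product restrains BAK1 and BCL2L11 protein, was at 313, 333, 319 and 271 CPM after 0, 1, 3 and 5 courses. Against parental cells its log2 ratios were 0.09, 0.03 and -0.21 in courses 1, 3 and 5, and the interval of course 3 held 0. With library totals in place of TMM the ratios of courses 1 and 3 changed sign, to -0.03 and -0.05. Its range was narrower than that of 83.8% of genes.

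BCL2A1 (ENSG00000140379, chromosome 15), an NF-kB-induced survival gene of white blood cells, had 388, 689, 223 and 215 reads after 0, 1, 3 and 5 courses. Those are 6.56, 15.99, 4.44 and 4.72 CPM. Course 1 stood above the other libraries, and courses 3 and 5 differed by less than their counting error, with a log2 ratio of 0.09 (-0.19 to 0.36). In course 1 against parental the log2 ratio was 1.29 (1.10 to 1.47), and in course 5 against course 1 it was -1.76 (-1.99 to -1.54). It was the widest range among the members, exceeded by 4.56% of genes.

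The effector BAX (ENSG00000087088, chromosome 19) stood at 118, 138, 131 and 170.1 CPM after 0, 1, 3 and 5 courses. Course 5 was highest, 1.44-fold above parental, and 27.6% of genes were farther from the parental level in that library. The other effector, BAK1, was at 34.2, 25.0, 32.2 and 33.2 CPM after 0, 1, 3 and 5 courses. BOK, another pore-forming relative, had 1 to 6 reads in a library.

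Of the BH3-only genes, BCL2L11 (ENSG00000153094, chromosome 2) was at 89.1, 168, 134 and 126 CPM after 0, 1, 3 and 5 courses. Every DMSO library was above the parental one. The log2 ratios were 0.91 (0.86 to 0.97), 0.58 (0.53 to 0.64) and 0.50 (0.45 to 0.56) in courses 1, 3 and 5. MIR4435-2HG overlaps 10.9% of the exon bases of BCL2L11 on the opposite strand and had 375 to 1003 reads, against 5273 to 7234 for BCL2L11, so the pair is separated only as far as the counting used strand.

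BBC3 (ENSG00000105327, chromosome 19), which encodes PUMA, a protein that binds all the anti-apoptotic members, stood at 43.6, 67.5, 53.1 and 75.95 CPM after 0, 1, 3 and 5 courses. All DMSO libraries were higher, though not in the order of the courses. The log2 ratios were 0.63, 0.28 and 0.80 in courses 1, 3 and 5. Between courses 5 and 3, which were close to each other over all genes, BBC3 differed by 0.52 (0.44 to 0.59), and 6.68% of genes differed by more.

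PMAIP1 (ENSG00000141682, chromosome 18), which encodes NOXA, a protein that binds MCL1 and marks it for degradation, had 2032, 990, 2391 and 2399 reads after 0, 1, 3 and 5 courses. Those are 34.4, 23.0, 47.6 and 52.7 CPM. Course 1 was below parental and the later courses were above it. Its log2 ratios to the parental library were -0.58 (-0.69 to -0.47) in course 1, 0.47 (0.39 to 0.56) in course 3 and 0.62 (0.53 to 0.70) in course 5. Course 5 was 2.29-fold above course 1, and 11% of genes were farther apart.

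BID (ENSG00000015475, chromosome 22), cleaved by caspase 8 into its active form, was at 65.5, 41.1, 53.6 and 61.5 CPM after 0, 1, 3 and 5 courses. It was the BH3-only gene that stood below parental in all DMSO libraries, with log2 ratios of -0.67, -0.29 and -0.09. The last of these had a counting interval of -0.16 to -0.02.

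BMF (ENSG00000104081, chromosome 15), which encodes a BH3-only protein tied to the cytoskeleton, had 7319, 7076, 4052 and 3199 reads after 0, 1, 3 and 5 courses. Those are 124, 164, 80.7 and 70.2 CPM. The DMSO libraries lay on either side of the parental level. The log2 ratios were 0.41 (0.36 to 0.46) in course 1, -0.62 (-0.67 to -0.56) in course 3 and -0.82 (-0.88 to -0.76) in course 5. Its antisense partner BMF-AS1, which overlaps 8.5% of its exon bases, had at most 1 read, with the same limit on strand.

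**Figure D2:**
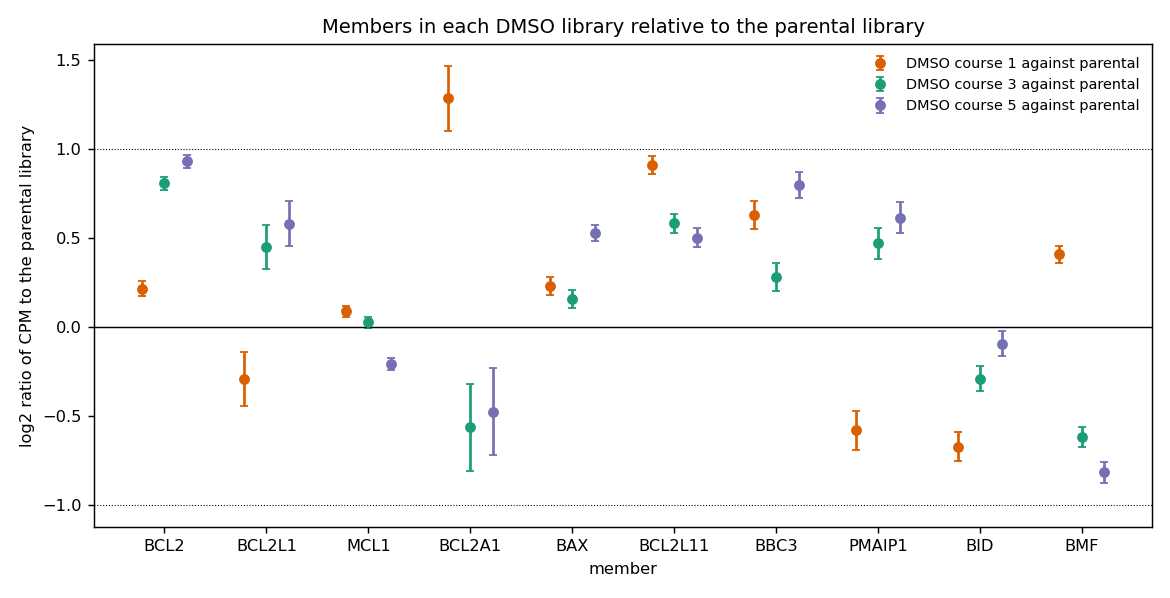
Log2 ratio of CPM to the parental library (y axis) for each member (x axis) in DMSO courses 1, 3 and 5. Bars are exact binomial 95% intervals for counting error, and dotted lines mark 2-fold. BCL2A1 in course 1, at 1.29, is the one point beyond 2-fold.

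A member was counted as apart between 2 libraries when they differed by 2-fold or more and the counting interval excluded a ratio of 1. The 3 ratios to the parental library share that library. In course 1 against parental 1 of 10 members was apart, BCL2A1, which was higher, and 7.89% of the 10710 genes were apart. In course 3 against parental 0 of 10 were apart (4.58% of genes), and in course 5 against parental 0 of 10 (7.88% of genes). At 1.5-fold, 4 of 10 members were apart in course 1 (26.6% of genes), 2 in course 3 (13.1%) and 4 in course 5 (23.2%). Those were BCL2A1, BCL2L11 and BBC3 higher and BID lower in course 1. BCL2 was higher and BMF lower in courses 3 and 5, and BBC3 and PMAIP1 were also higher in course 5. The median absolute log2 ratio to parental was 0.49, 0.46 and 0.56 for the members in courses 1, 3 and 5, and 0.34, 0.23 and 0.31 for all genes.

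The members stood farthest apart between course 5 and course 1, with a median absolute log2 ratio of 0.65. All genes did too, at 0.45. In that pair 3 of 10 were apart at 2-fold, with PMAIP1 higher and BCL2A1 and BMF lower in course 5, beside 16.2% of genes. In course 3 against course 1 the same genes were apart, beside 8.72% of genes. With library totals in place of TMM, BMF fell short of 2-fold there, which left 2 of 10 beside 8.77% of genes. At 1.5-fold 5 of 10 were apart in either pair, BCL2 and BCL2L1 having joined the higher ones, beside 38% and 25.8% of genes. In course 5 against course 3 it was 0 of 10 at 2-fold (0.999% of genes) and 0 of 10 at 1.5-fold (5.07%). The median absolute log2 ratio in that pair was 0.17 for the members and 0.16 for all genes.

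**Figure D3:**
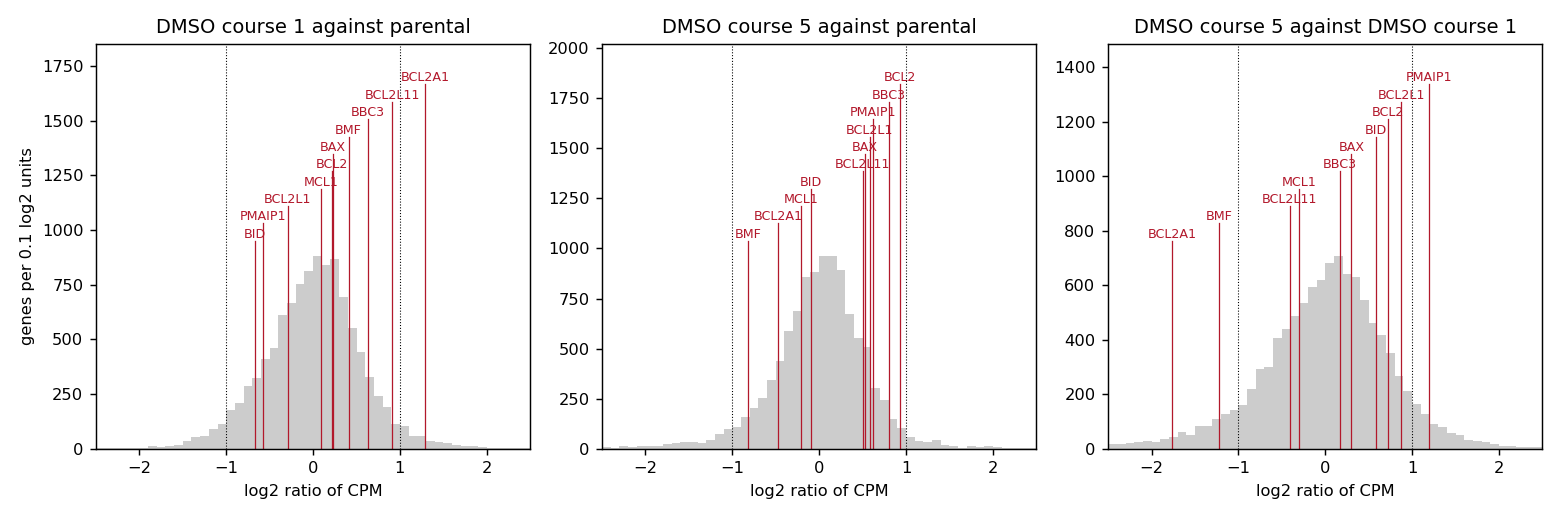
Histograms of the log2 ratio of CPM (x axis) over the 10710 genes that averaged 5 CPM or more (y axis, genes per bin of 0.1), with each member as a red line; line heights only separate the names. In DMSO course 5 against DMSO course 1, BCL2A1 at -1.76 and BMF at -1.23 lie left of the dotted 2-fold line and PMAIP1 at 1.20 lies right of the other.

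Between genes, levels were compared as CPM per kilobase of merged exons. In course 5 BAX led at 65.7 CPM per kilobase, followed by MCL1 at 62.0, BCL2 at 26.7, BBC3 at 23.9, PMAIP1 at 23.6, BCL2L11 at 19.0, BID at 13.8, BMF at 12.9, BCL2L1 at 7.43 and BCL2A1 at 4.33. In the parental library the order was MCL1 at 71.7, BAX at 45.5, BMF at 22.7, PMAIP1 at 15.4, BID at 14.7, BCL2 at 13.96, BBC3 at 13.7, BCL2L11 at 13.4, BCL2A1 at 6.02 and BCL2L1 at 4.96. BCL2 thus took place 3 in course 5 and place 6 in the parental library, and BMF took places 8 and 3. The order depends on the length taken: with the longest coding transcript, chosen as an alternative after the data were seen, BAX led the parental library too, at 86.8 CPM per kilobase against 79.7 for MCL1.

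The pool of the 4 anti-apoptotic members differed between libraries more in make-up than in size. Expressed relatives outside the members, such as BCL2L2 at 21.5 to 30.6 CPM, are in none of the sums and shares given here. The summed level of the 4 genes was 96.6, 111, 108 and 100.4 CPM per kilobase after 0, 1, 3 and 5 courses. The share of MCL1 in it was 74.2, 68.6, 67.4 and 61.8%, and that of BCL2 was 14.5, 14.6, 22.6 and 26.5%. BCL2A1 held 6.23, 13.2, 3.76 and 4.31%, and BCL2L1 held 5.13, 3.64, 6.25 and 7.39%. By the longest coding transcript, MCL1 held 69.7, 64.7, 61.2 and 55.2% and BCL2 held 19.3, 19.5, 29.1 and 33.6%. By merged exons the 5 BH3-only genes summed to 79.9, 96.1, 84.9 and 93.1 CPM per kilobase. That is 0.83, 0.86, 0.78 and 0.93 of the anti-apoptotic sum. With the longest coding transcript as length this ratio was 0.97, 1.01, 0.89 and 1.06, so whether it lay above or below 1 depended on the length taken. Within the BH3-only sum BMF held 28.4, 31.4, 17.4 and 13.8%, and PMAIP1 held 19.2, 10.7, 25.1 and 25.3%. These shares are descriptions of 1 library each, with no test.

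**Figure D4:**
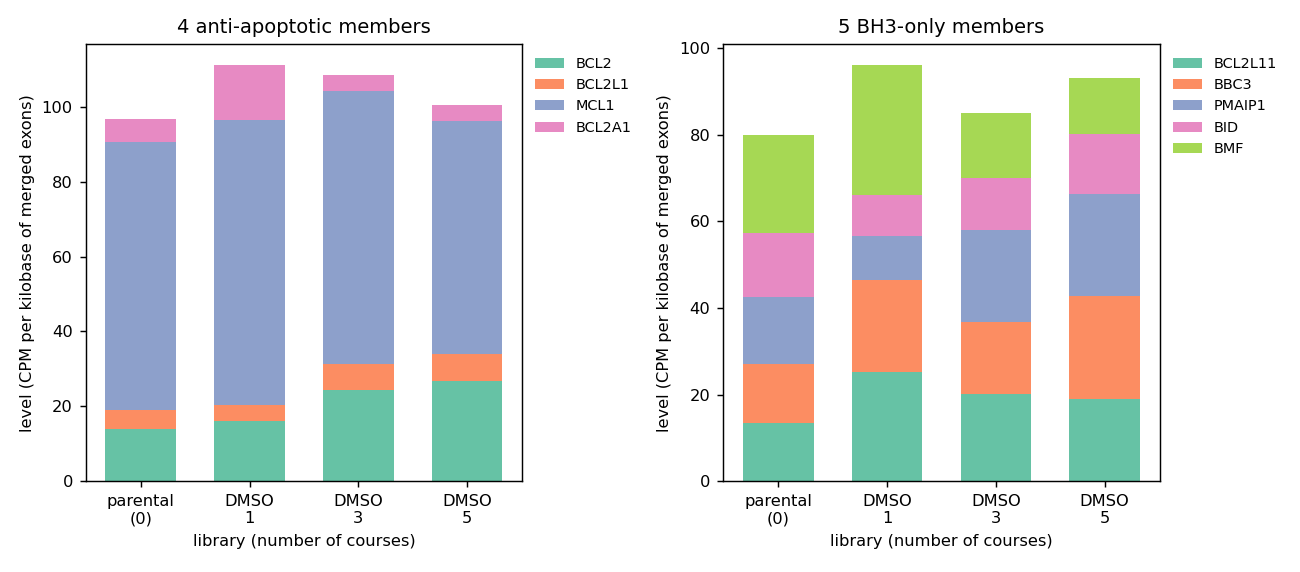
Stacked levels (y axis, CPM per kilobase of merged exons) of the 4 anti-apoptotic and the 5 BH3-only members in the parental library (0 courses) and DMSO courses 1, 3 and 5 (x axis). The BCL2 segment is 26.7 in course 5 and 13.96 in the parental library, while the MCL1 segment is 62.0 in course 5 and 71.7 in the parental library.

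Ratios of reads between members of the same library do not depend on library scaling. These pairs were chosen after the values were seen. There were 0.524 BCL2 reads per MCL1 read in the parental library (95% counting interval 0.512 to 0.537), 0.573 in course 1 (0.557 to 0.589), 0.901 in course 3 (0.881 to 0.922) and 1.16 in course 5 (1.13 to 1.19). The course 5 value was thus 2.21 times the parental one. PMAIP1 reads per MCL1 read were 0.1097, 0.0690, 0.149 and 0.194 after 0, 1, 3 and 5 courses. BMF reads per BCL2L11 read were 1.39, 0.978, 0.604 and 0.556, so BMF was the less counted of the pair in courses 3 and 5 and the more counted in the parental library. The interval of course 1, 0.947 to 1.01, held a ratio of 1. A ratio of this kind shows unequal change and not which gene changed.

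The comparison of all 3 DMSO libraries with the parental one asked which members separated vehicle cultures from untreated cells. No member passed it. edgeR's quasi-likelihood test called 0 of 10 members and 0 of 18612 genes, 0% of those tested, after Benjamini-Hochberg adjustment. At an unadjusted p under 0.05 edgeR listed 0 members and 1045 genes (5.61%). limma-voom called 0 genes. DESeq2's Wald test called 209 (1.12%) and edgeR with no filter on low counts 13 (0.0454%), none of them a member. The members nearest to a call were BCL2L11, with a log2 fold change of 0.68 (SE 0.27, edgeR adjusted p = 0.908), BBC3 with 0.59 (SE 0.29, adjusted p = 0.928) and BCL2 with 0.68 (SE 0.36, adjusted p = 0.928). Each of these was higher in 3 of 3 DMSO libraries, with no share over all genes given for that count. The 3 comparisons share the 1 parental library. BCL2A1 had 0.35 with SE 0.86, BMF -0.24 with SE 0.53 and PMAIP1 0.26 with SE 0.51, and their DMSO libraries lay on both sides of the parental level.

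The slope asked which members followed 0, 1, 3 and 5 courses, and again edgeR's quasi-likelihood test called 0 of 10 members and 0% of genes. BCL2 had a slope of 0.20 log2 units per course (SE 0.046, unadjusted p = 0.00624, edgeR adjusted p = 0.202) and BMF one of -0.23 (SE 0.072, unadjusted p = 0.0231, adjusted p = 0.259). They were the 2 members at an unadjusted p under 0.05, a mark that 15.8% of all genes met. limma-voom also called 0 genes. DESeq2's Wald test called 888 genes (4.77%) and 0 members, with BCL2 at an adjusted p of 0.0539, and edgeR with no filter 134 genes (0.468%) and 0 members. BCL2L1 had a slope of 0.15 (SE 0.063, edgeR adjusted p = 0.323), PMAIP1 0.18 (SE 0.076, adjusted p = 0.336) and BCL2A1 -0.27 (SE 0.16, adjusted p = 0.457).

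Calls among the members hung on which library was left out, each time with 1 residual degree of freedom. Without course 1, edgeR called BCL2 higher in DMSO courses 3 and 5 than in parental cells (log2 fold change 0.87, SE 0.20, adjusted p = 0.0226) and BMF lower (-0.71, SE 0.17, adjusted p = 0.0283), 2 of 10 members beside 8.59% of genes. BCL2A1 then changed sign, to -0.52 (adjusted p = 0.293). The slope without course 1 called BCL2, BBC3 and PMAIP1 rising and BMF falling, 4 of 10 beside 15.2% of genes. A slope fitted to the 3 DMSO libraries called 5 of 10 beside 22.8% of genes. BCL2 (0.18 per course, edgeR adjusted p = 0.0316), BCL2L1 (0.22, adjusted p = 0.041) and PMAIP1 (0.30, adjusted p = 0.0117) rose in that fit, and BCL2A1 (-0.45, adjusted p = 0.00909) and BMF (-0.31, adjusted p = 0.0033) fell. Without course 3 it was 0 of 10 for the fold change (0.137% of genes) and for the slope (0.175%), and without course 5 likewise 0 of 10 (0.168% and 0.0271%).

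For the members with at least a 2-fold range, the genes with the most similar profile were sought over the 4 libraries among 9604 named protein-coding genes, by the root mean square difference of centred log2 CPM. BCL2A1 was closest to HILPDA (difference 0.0546), which encodes a lipid droplet protein, at 35.3, 84.5, 25.6 and 24.8 CPM after 0, 1, 3 and 5 courses. The other was DHRS3 (0.0758), which encodes a retinal reductase. PMAIP1 was closest to GPR85 (0.0325) and TRIM35 (0.0379), and BMF to CDC25C (0.0225) and the adenylate kinase gene AK4 (0.025). With 4 libraries such likeness is common: 593 genes lay within 0.2 of PMAIP1, 457 of BMF and 23 of BCL2A1.

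Among the other genes of the pathway edgeR's quasi-likelihood test called 0 in either comparison. At an unadjusted p under 0.05 the fold change had 1 of 5 inhibitor of apoptosis genes and 3 of 7 transcription factors. It had 0 of 9 BH3-like relatives and 0 of 10 death receptor genes. The slope had 4 of 9 BH3-like relatives, 2 of 5 inhibitor of apoptosis genes, 2 of 10 death receptor genes and 0 of 7 transcription factors. Both had 0 of 10 release and apoptosome genes and 0 of 5 genes of MCL1 turnover. Over all genes tested the same mark was met by 5.61% for the fold change and 15.8% for the slope. BCL2L2, which encodes the survival protein BCL-W, was at 26.8, 30.6, 25.6 and 21.5 CPM after 0, 1, 3 and 5 courses, and BCL2L10 had 7 to 18 reads. Of the 10 further genes, listed loosely as BH3-only and BH3-like relatives, 7 had a mean of at least 5 CPM. Their median log2 ratios to parental were 0.33, -0.21 and -0.23 in courses 1, 3 and 5, beside 0.02, 0.01 and 0.03 over all genes. BNIP3, a mitochondrial BH3-like gene induced by low oxygen, was at 96.3, 267, 43.2 and 23.6 CPM, and its relative BNIP3L at 106, 225, 61.5 and 44.97 CPM. BNIP3 had log2 ratios to parental of 1.47, -1.16 and -2.03, beyond 2-fold in all DMSO libraries and on both sides of the parental level.

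Downstream of the mitochondria, 9 of 10 release and apoptosome genes had a mean of at least 5 CPM. CYCS, which encodes cytochrome c, was at 162, 60.3, 137 and 179.9 CPM after 0, 1, 3 and 5 courses. It was the 1 gene of those 9 at least 2-fold from parental, in course 1, beside 7.89% of all genes. The 3 inhibitor of apoptosis genes at that level, XIAP, BIRC2 and BIRC6, were higher in all DMSO libraries. These genes were compared with the same parental library each time, and no share over all genes is given for that count. Their median log2 ratios to parental were 0.33, 0.48 and 0.53 in courses 1, 3 and 5, beside 0.02, 0.01 and 0.03 over all genes. Below that level, BIRC7 had log2 ratios of 0.54, -3.00 and -5.80, and BIRC3 -0.07, -0.14 and 0.41. XIAP, which blocks caspases directly, stood at 27.6, 33.5, 38.4 and 46.5 CPM.

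Of the 10 death receptor genes 0 were 2-fold from parental in any DMSO library, beside 7.89%, 4.58% and 7.88% of all genes in courses 1, 3 and 5, so the count is near the share over all genes. TNFRSF10B, a TRAIL receptor, was at 255, 293, 313 and 369 CPM, and CFLAR, which blocks caspase 8, at 167, 155, 145 and 111 CPM. Among the 5 expressed genes of MCL1 turnover the deubiquitinase gene USP13 was at 21.5, 9.77, 22.5 and 29.1 CPM, more than 2-fold lower than parental in course 1. Of 6 expressed transcription factors that act on BH3-only genes, E2F1, a cell cycle factor, was at 38.2, 13.8, 23.9 and 21.2 CPM. It too was more than 2-fold lower than parental in course 1. USP13 was thus 1 of 5 and E2F1 1 of 6 in course 1, beside 7.89% of all genes. ATF4 was at 458, 404, 530 and 580 CPM, and like PMAIP1 it was lowest in course 1. Whether any of these genes has a part in the levels of the members was not tested.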

How the data were processed

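The authors deposited raw read counts per Ensembl gene ID, 1 file a library. The submitters' processing notes name FastQC 0.11.5, TopHat2 2.0.11, HTSeq 0.6p1 as tools, and hg19, with no order or role. All 58735 IDs matched GENCODE release 29, a GRCh38 annotation. Which build was counted on is therefore unsettled, and genes are placed by chromosome only. The deposited files' names call the counts reverse-stranded, and 6.64 to 9.79% of reads met no feature. HTSeq's summary rows (24.57 to 29.81% of reads) were left out.

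The 10 members and all lists were chosen with earlier results of these data known. The count tests ran in edgeR 4.0.16 under R 4.3.3 (TMM, filterByExpr with minimum count 10 and total 15), limma 3.58.1 and DESeq2 1.42.0, and p-values adjusted by Benjamini-Hochberg over all genes tested at 0.05. Both fits had 2 residual degrees of freedom and took their spread from libraries of different courses, so a p-value reflects no more than how these libraries vary, and the single parental library is taken to vary as they do. For pairs of libraries no test was possible: the log2 ratio of computed CPM is given, with an exact binomial 95% interval for counting error. No pair of libraries agreed within counting noise. Pathway genes are named when at least 2-fold from parental in a DMSO library, up to 4 a list; others named were chosen after their values were seen. The functions were tested on simulated data, where the fold change recovered 33 of 100 genes changed 4-fold and the slope 28 of 100. Of genes changed 16-fold it was 90 and 94 of 100. A result of 0 calls therefore does not show that a gene was unchanged. Alternatives were other tools, scalings, filters and leaving out each library. Some genes of the pathway lists are not reported here.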

Additional observations from a re-analysis of the deposited data

Results flagged for a closer look

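The members BCL2L1, BCL2A1, PMAIP1 and BMF lay on opposite sides of the parental level in DMSO course 1 and in DMSO courses 3 and 5, each beyond counting error, and 21% of all genes averaging 5 CPM or more did so too. The difference was not tested, and all these ratios share the parental library. The log2 ratio of course 5 to course 1 was 0.87 for BCL2L1, -1.76 for BCL2A1, 1.20 for PMAIP1 and -1.23 for BMF. In that pair 16.2% of genes were at least 2-fold apart.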

How the results depend on the processing

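Genes called by edgeR in the DMSO courses against parental numbered 0, against 209 by DESeq2, 13 with no filter on low counts and 25 to 1578 with a library left out. For the slope the count was 0, against 888, 134 and 5 to 4094. Other scalings, limma-voom and a minimum of 5 CPM called 0. Without course 1 the count was 1578 and 2795. Fitted values of members changed sign under no other tool, scaling or filter but when a library was left out, and over those fits the fold change of BCL2A1 ran from -0.52 to 0.65 and that of MCL1 from -0.0855 to 0.056, and the slope of MCL1 from -0.0753 to 0.0034, of BID from -0.0623 to 0.14 and of BCL2L11 from -0.10 to 0.13. At 1.5-fold, members apart numbered 4, 2 and 4 in courses 1, 3 and 5 against parental and 5 and 5 in courses 3 and 5 against course 1. With library totals course 3 against course 1 had 2, since all log2 ratios to parental shifted by -0.11, -0.08 and -0.04 in courses 1, 3 and 5. The other causes were not tested. No paired analysis was possible because each group has 1 library. Depth limits BCL2A1, with 215 reads in course 5.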

Other observations

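Some genes of the pathway below the minimum of 5 CPM were widely spread over the libraries. They were chosen after their values were seen, and comparisons with parental cells rest on the 1 parental library. HRK, a BH3-only gene best known from neurons, had 3, 7, 14 and 41 reads after 0, 1, 3 and 5 courses. BIRC7, an inhibitor of apoptosis gene known from melanoma, had 217, 229, 23 and 3 reads. TP73, a transcription factor gene, stood at 1.15, 5.04, 4.30 and 4.72 CPM after 0, 1, 3 and 5 courses, with an edgeR log2 fold change of 2.02 (SE 0.38, adjusted p = 0.454), higher in 3 of 3 DMSO libraries.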
